A study of Mus musculus with 6 samples.

Results

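The contractile genes of smooth muscle and myofibroblasts were followed in mouse embryonic fibroblasts (MEFs) that carried or lacked YME1L, a protease of the inner membrane of mitochondria. The set held 10 genes named by symbol: Acta2, Actg2, Tagln, Cnn1, Cnn2, Myl9, Tpm1, Tpm2, Myh11 and Myocd. Each was taken as the locus of the count table that carries its symbol, which gave 10 of 51499 loci, none merged with a neighbouring gene. The rule uses symbols and no measured value, but the set was proposed with earlier results of these data known. Both groups were MEFs immortalized with SV40 large T antigen: 3 WT cultures, whose Yme1l alleles are floxed and intact (fl/fl), and 3 Yme1l-/- cultures. Per the study's methods, both lines were grown from individual clones after Cre transduction of floxed cells, so a difference between clones cannot be told apart from the loss of YME1L, and tests over cultures measure the spread between cultures only. The labels name no treatment, time point or batch. The count columns of the control group are headed WT2, and what the 2 stands for is not stated.

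Smooth muscle cells and myofibroblasts (fibroblasts that build stress fibres and pull on their matrix) contract through the sliding of myosin II on actin filaments. The genes of the set encode parts of this machinery, several of them smooth muscle versions of parts that every cell has: actins (Acta2, Actg2), the myosin heavy chain (Myh11) and its regulatory light chain (Myl9), tropomyosins along the filament (Tpm1, Tpm2), and the filament-binding calponins (Cnn1, Cnn2) and transgelin (Tagln). Many of them are transcribed by serum response factor (SRF), which binds a DNA element called the CArG box together with myocardin (Myocd) or the related factors Mkl1 and Mkl2 (MRTF-A and MRTF-B). Acta2 in stress fibres is the usual marker of a myofibroblast, whereas Myh11 and Myocd mark differentiated smooth muscle.

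The actins are shown first because the largest change of the set, that of Actg2, was in this family and because its members resemble each other closely. The 60 bases below lie near the start of the coding sequence, each within a single exon, and were read from GENCODE vM21 transcripts (build GRCm38, all genes on the minus strand). Capitals mark bases that differ from Acta2.
Acta2 (chr19:34252464-34252523): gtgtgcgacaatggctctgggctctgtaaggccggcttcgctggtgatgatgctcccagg
Actg2 (chr6:83527355-83527414): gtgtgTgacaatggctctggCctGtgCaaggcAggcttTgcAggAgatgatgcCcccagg
Actb (chr5:142905603-142905662): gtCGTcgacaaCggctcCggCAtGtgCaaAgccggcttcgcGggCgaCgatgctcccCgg
Actg1 (chr11:120348008-120348067): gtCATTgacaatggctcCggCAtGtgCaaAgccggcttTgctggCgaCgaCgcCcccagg
Actg2 differed from Acta2 at 9 of these bases, Actb at 14 and Actg1 at 15. Over the whole coding sequence Acta2 was identical to Actg2 at 84.2% of aligned bases, with a longest identical run of 29 bases, to Actb at 82.8% (run of 47) and to Actg1 at 81.5% (run of 56). The counting of fragments that fit several genes was not stated, so actin values carry that uncertainty. Among the other families, Myl9 was identical to Myl12b at 86.3% and to Myl12a at 85.5%, Tagln to Tagln2 at 69.1%, Tpm1 to Tpm2 at 63.6% and Cnn1 to Cnn2 at 63.3%.

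The WT libraries held 33180867 to 34012520 fragments and the Yme1l-/- libraries 34624075 to 49351107. Levels are given in CPM (counts per 1e6, after TMM scaling of each library), and 13867 loci passed the filter on low counts, 9 members among them. The transcript of the deleted gene, Yme1l1, fell from 188.7 ± 5.16 CPM (SD, n = 3) in WT to 39.1 ± 1.34 CPM in Yme1l-/- cells, a log2 fold change of -2.27 ± 0.05 (SE). Of the loci tested, 67.7% passed an adjusted p of 0.05 in edgeR's quasi-likelihood test, 33.6% higher and 34.1% lower in Yme1l-/- cells, so a call by itself did not set a gene apart. The median log2 fold change of the tested loci differed by chromosome, from -0.44 on chromosome 12 to 0.59 on chromosome 15. These medians stand beside the members below, and their part in the results was not tested. WT replicate 2 stood apart over all loci, with a chi-square per degree of freedom of 35.4 and 38.1 against the other WT libraries, which differed from each other by 12.9. An example chosen after its values were seen is Col3a1 (collagen III), with 9860 counts in that library against 2858 and 2974. In the Yme1l-/- group replicate 1, the shallowest, had the highest CPM of 8 of the 10 members. In the WT group replicate 1 was highest for Acta2, Tagln, Cnn1, Cnn2, Tpm1, Tpm2 and Myocd, and replicate 3 for Actg2, Myl9 and Myh11.

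Of the 9 members tested, 6 were higher in Yme1l-/- cells and none was lower, which is 66.7% called higher against 33.6% of all loci. Acta2, Actg2 and Myl9 rose at least 2-fold, a size reached by 9.1% of all loci upwards and 8.63% downwards, while Tagln, Cnn2 and Tpm2 rose by less than 1.3-fold. Tpm1, Cnn1 and Myh11 were not called, and Myocd had too few counts for a test. The median log2 fold change of the 9 was 0.33, with a range from -0.36 to 3.80, against -0.0041 over all loci tested. With chromosome medians removed it was 0.66, and 6 members were again higher, with Tpm1 called in place of Cnn2. In each of the 6 called genes the lowest Yme1l-/- library exceeded the highest WT library, a pattern found in 35.9% of all loci; the reverse pattern, seen in no member, was found in 36.0%, and either in 71.9%. The counts of 6 higher and 0 lower were also obtained without Yme1l-/- replicate 1. Without WT replicate 2 they were 6 and 1, because Cnn1 was then called lower, and without WT replicate 3 they were 5 and 0, because Tagln was lost. As all cells of a culture were pooled, more RNA per cell and more cells that make it cannot be told apart.

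**Figure D1:**
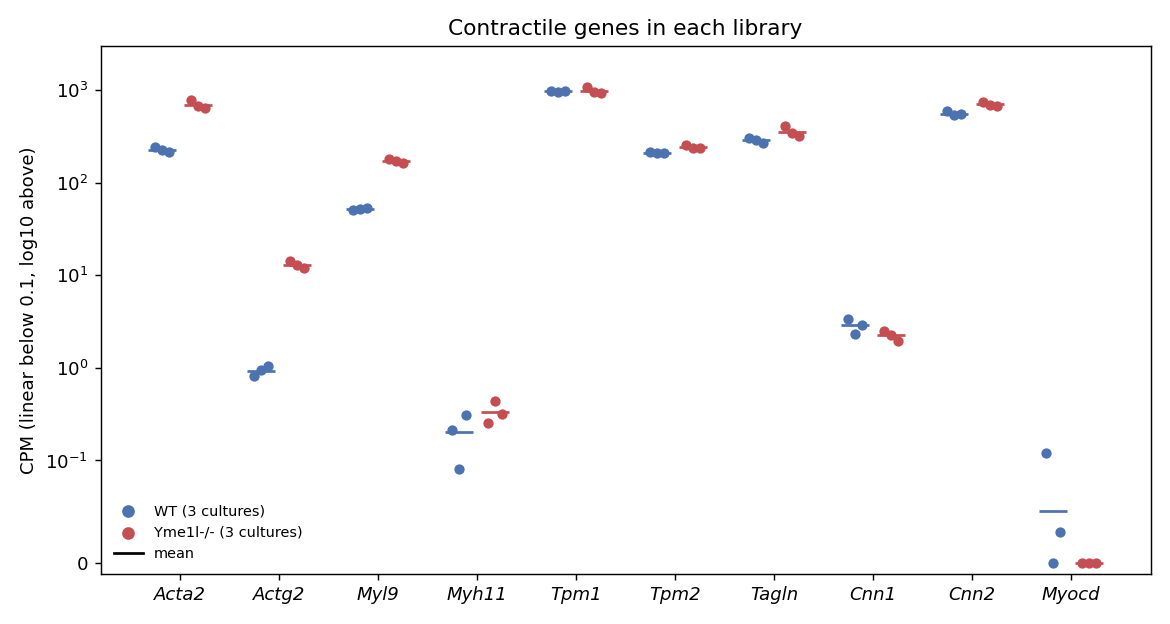
CPM of the 10 contractile genes (linear below 0.1, log10 above) in each of 3 WT and 3 Yme1l-/- cultures, with a dash at the mean of each group. Acta2, Actg2 and Myl9 show wide gaps between the genotypes, Tagln, Cnn2 and Tpm2 narrow ones, and Tpm1, Cnn1 and Myh11 overlap.

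Acta2 encodes smooth muscle alpha-actin. It had 244.6, 223.7 and 215.7 CPM in WT and 789.9, 672.8 and 633.4 CPM in Yme1l-/- cells (chr19:34241090-34255336, mm10). The lowest Yme1l-/- library was thus far above the highest WT library. The log2 fold change was 1.62 ± 0.08 (SE; edgeR adjusted p = 5.73e-08), a 3.06-fold rise, where the median of chromosome 19 was 0.12.

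Actg2 encodes smooth muscle gamma-actin, which is made mainly in the wall of the gut and other hollow organs. Counts were 27, 31 and 34 in WT and 502, 651 and 606 in Yme1l-/- cells (chr6:83512905-83536265), or 0.816 to 1.04 CPM against 11.9 to 14.3 CPM. The groups were far apart, with the largest change of the set, a log2 fold change of 3.80 ± 0.14 (edgeR adjusted p = 1.13e-09; chromosome 6 median 0.34). Even so, Actg2 remained the rare actin. There were 0.00413 ± 0.000752 Actg2 fragments per Acta2 fragment in WT and 0.0187 ± 0.000518 in Yme1l-/- cells.

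Myl9 encodes the regulatory light chain whose phosphorylation starts contraction in smooth muscle. It had 51.2, 52.5 and 53.9 CPM in WT and 180.6, 171.2 and 165.2 CPM in Yme1l-/- cells (chr2:156775420-156781658). Its libraries agreed most closely within groups among the genes that rose at least 2-fold. The log2 fold change was 1.71 ± 0.05 (edgeR adjusted p = 2.24e-10), 3.28-fold, on a chromosome whose median was -0.02.

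Myh11, the smooth muscle myosin heavy chain, had 7, 3 and 10 counts in WT and 9, 22 and 16 in Yme1l-/- cells (chr16:14194527-14291408). The groups overlapped, and the log2 fold change of 0.74 ± 0.45 was not called (edgeR adjusted p = 0.168), with a 95% interval from -0.14 to 1.63. At this depth a change of the size seen in Acta2 lies just inside that interval. Myocd, the cardiac and smooth muscle coactivator of SRF, had 4, 0 and 1 counts in WT and 0 in every Yme1l-/- library (chr11:65176561-65269989). A count of 0 allows up to 0.0857, 0.0595 and 0.0589 CPM in the Yme1l-/- libraries (3 counts, counting error only). Myh11 and Myocd, which mark differentiated smooth muscle, were thus at or near the limit of detection in both genotypes.

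Tagln encodes transgelin (SM22-alpha), an early smooth muscle marker that binds actin. It had 305.0, 291.6 and 268.2 CPM in WT and 406.6, 340.9 and 316.7 CPM in Yme1l-/- cells. The lowest Yme1l-/- library was only slightly above the highest WT library. The log2 fold change was 0.30 ± 0.09 (edgeR adjusted p = 0.0157). It was 0.19 without Yme1l-/- replicate 1, and it missed the threshold without WT replicate 3 (0.25, adjusted p = 0.0508). On chromosome 9, where the gene lies, the median was -0.36, and with chromosome medians removed the log2 fold change of Tagln was 0.66. The deposited locus (chr9:45838580-45936058) is longer than the GENCODE gene (45929619 to 45936058) and spans Bace1, Rnf214 and Pcsk7, which have their own rows. Pcsk7 meets the end of Tagln on the other strand and had 1393 to 1531 counts in WT, against 8756 to 10097 for Tagln.

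The calponins restrain myosin on actin filaments, Cnn1 being the smooth muscle form and Cnn2 a form found in many cells. Cnn2 had 592.1, 536.0 and 548.7 CPM in WT and 744.6, 690.0 and 666.6 CPM in Yme1l-/- cells (chr10:79988584-79996062). The log2 fold change of Cnn2 was 0.33 ± 0.06 (edgeR adjusted p = 0.000446), close to the chromosome 10 median of 0.30. Once that median was removed the call was lost (0.03, adjusted p = 0.698). Cnn1 went the other way in its means and its groups overlapped: it had 113, 76 and 94 counts in WT and 88, 115 and 99 in Yme1l-/- cells (chr9:22099216-22109630), 2.87 ± 0.546 against 2.25 ± 0.287 CPM. Its log2 fold change of -0.36 ± 0.18 was not called (edgeR adjusted p = 0.0936) and equalled the chromosome 9 median. Without WT replicate 2 it was -0.50 and was called (adjusted p = 0.0309).

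Tropomyosins lie along the actin filament and control access of myosin. Tpm1 had 985.4, 963.5 and 978.8 CPM in WT and 1075.7, 945.1 and 936.4 CPM in Yme1l-/- cells (chr9:67022590-67049406). The Yme1l-/- libraries lay on both sides of the WT libraries. Its log2 fold change was 0.01 ± 0.06 (edgeR adjusted p = 0.843), with a 95% interval from -0.10 to 0.13. With the chromosome 9 median of -0.36 removed, the value was 0.37 and was called (adjusted p = 0.000239). Tpm2 had 216.2, 209.6 and 207.8 CPM in WT and 257.4, 239.3 and 237.9 CPM in Yme1l-/- cells (chr4:43514711-43523765). Its libraries did not overlap, and the log2 fold change was 0.21 ± 0.04 (edgeR adjusted p = 0.00137). Both genes make several isoforms, which the counts per locus do not separate.

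**Figure D2:**
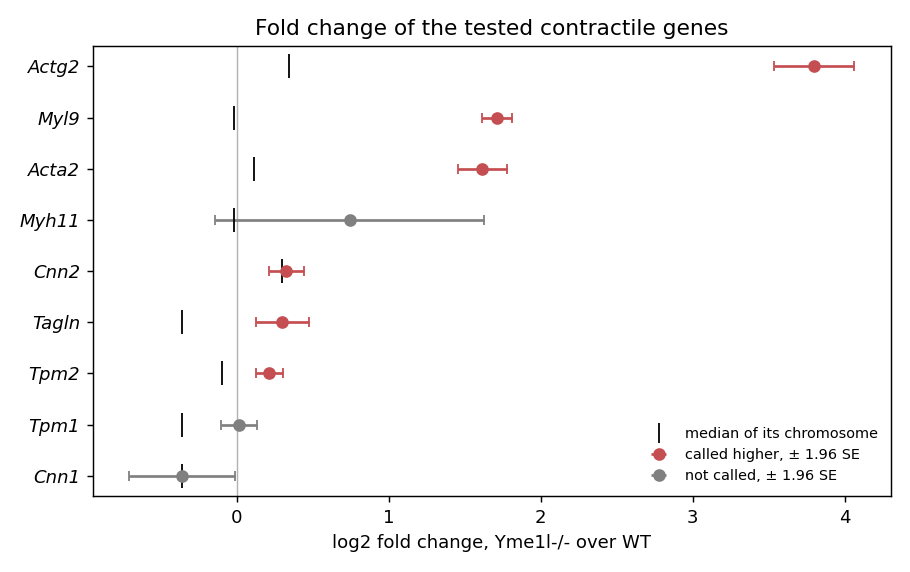
Log2 fold change (Yme1l-/- over WT) of the 9 tested contractile genes, with bars for the 95% interval and a black tick at the median of all tested loci on the gene's chromosome. Actg2, Myl9 and Acta2 lie far to the right of their ticks, whereas Cnn2 and Cnn1 lie on theirs.

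Levels of different genes were compared per length of transcript. In the authors' combined FPKM (fragments per kilobase of transcript, scaled for depth, 1 value per genotype with no error) Tpm1 led in both genotypes, with 606.5 in WT and 605.3 in Yme1l-/- cells. In WT it was followed by Cnn2 (280.9), Tagln (208.5), Tpm2 (193.4), Acta2 (138.0) and Myl9 (56.1), and the rest were below 2. In Yme1l-/- cells Acta2 came next after Tpm1 at 423.3 FPKM, ahead of Cnn2 (350.1), Tagln (258.9), Tpm2 (203.4) and Myl9 (186.8). Of CPM per kilobase of exon, which has a value in each culture, Acta2 had 103.8 ± 6.8 (SD, n = 3) in WT and 318.2 ± 37.1 in Yme1l-/- cells. On that scale Tpm1 did not lead: in WT Cnn2 (227.2 ± 11.96) was above Tpm1 (150.5 ± 1.73), and in Yme1l-/- cells Acta2, Cnn2 (284.7 ± 16.3) and Tagln (178.4 ± 23.4) had higher means than Tpm1 (152.0 ± 12.03). The place of Tpm1 in the order thus differs between these measures. Tpm1 and Tagln (145.0 ± 9.38) overlapped in WT, as did Acta2 and Cnn2 in Yme1l-/- cells, and Tagln and Tpm1 in Yme1l-/- cells.

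The uneven rise shifted the ratios between the contractile genes. Per Tagln fragment there were 0.791 ± 0.0208 Acta2 fragments in WT (SD, n = 3) and 1.97 ± 0.0288 in Yme1l-/- cells, and 0.183 ± 0.0168 Myl9 fragments against 0.489 ± 0.0404. Per Cnn1 fragment, Acta2 rose from 81.0 ± 13.4 to 311.7 ± 15.6. Such ratios within a library do not depend on the scaling of the library. Each gave p = 0.1 in a two-sided exact permutation test, which is the smallest that 3 against 3 allows (0.1 after adjustment over 5 ratios).

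Within its protein family the contractile gene took a larger share in most cases. Shares were taken of the summed CPM per kilobase of exon, and those from the authors' combined FPKM moved the same way. Acta2 made up 4.01% ± 0.105 (SD, n = 3) of the 4 actins in WT and 12.1% ± 0.848 in Yme1l-/- cells, and Actg2 0.0234% ± 0.00418 and 0.319% ± 0.0162. The cytoplasmic actins Actb and Actg1 stayed above 40% each. The share of Myl9 among the 3 regulatory light chains went from 14.9% ± 0.891 to 41.0% ± 0.491 by this measure, and from 6.11% to 20.9% by FPKM, while that of Myl12a went from 78.7% ± 1.15 to 54.0% ± 0.0675. The level of Myl12a itself fell, from 765.8 to 843.0 CPM in WT to 638.8 to 683.4 CPM in Yme1l-/- cells.

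Among tropomyosins the share of Tpm1 went from 15.1% ± 0.339 to 20.8% ± 0.457 and that of Tpm2 from 7.29% ± 0.106 to 11.6% ± 0.156. Here the level of Tpm4, a non-muscle tropomyosin, fell, from 1509.5 ± 30.5 to 943.7 ± 59.7 CPM. Tagln went from 34.1% ± 0.87 to 46.6% ± 2.08 of the transgelins, and Cnn2 from 63.2% ± 1.43 to 74.3% ± 0.542 of the calponins. Cnn1 was 0.291% ± 0.0476 of the calponins in WT and 0.214% ± 0.0181 in Yme1l-/- cells. Myh11 was 0.0174% ± 0.00861 of the myosin II heavy chains in WT and 0.0215% ± 0.0042 in Yme1l-/- cells, and these libraries overlapped (exact permutation p = 0.6). For the other shares named here the libraries did not overlap, which gives the smallest exact permutation p of 0.1 (0.131 adjusted over 21 shares).

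**Figure D3:**
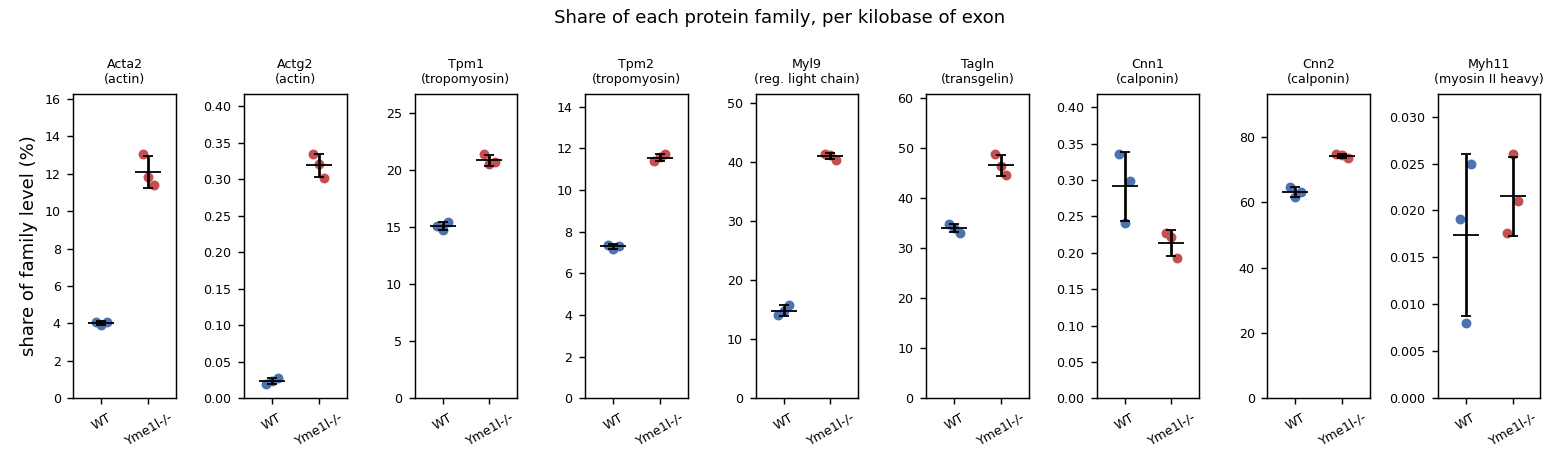
Share of each contractile gene in its protein family, in percent of the family's summed CPM per kilobase of exon, in 3 WT (blue) and 3 Yme1l-/- (red) cultures, with mean and SD; each panel has its own axis from 0. The share of Acta2 went from 4.01% to 12.1% and that of Myl9 from 14.9% to 41.0%, whereas the Myh11 shares overlapped.

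The non-muscle counterparts of these genes (15 fixed by symbol) were compared in the same way. Of 14 tested, 4 were higher, 7 lower and 3 not called, where 33.6% of all loci were higher and 34.1% lower, and the median log2 fold change was -0.21. Actb, with 3298.2 ± 126.2 CPM in WT and 3062.6 ± 65.3 in Yme1l-/- cells, had a log2 fold change of -0.11 ± 0.05 (edgeR adjusted p = 0.0813), which DESeq2 called lower (-0.11, adjusted p = 0.0329). Actg1 had -0.11 ± 0.07 (adjusted p = 0.149), and was called lower without WT replicate 3 (-0.18, adjusted p = 0.0256) and with chromosome medians removed (-0.47). Actn1, the stress fibre crosslinker alpha-actinin, was lower by this fit (-0.49 ± 0.05), a call lost with chromosome medians removed (-0.05). The myosin heavy chains Myh14 (1.71 ± 0.25) and Myh9 (0.42 ± 0.06) were higher. Myh9 lies on chromosome 15 and turned to -0.17 with chromosome medians removed, a setting that left 1 of the 14 higher.

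The promoters of the contractile genes were read for the CArG box, here 2 C, 6 bases that are A or T, and 2 G, a pattern that is its own reverse complement. RefSeq (GRCm38.p6) windows of 300 bases, 250 before to 50 after the start, were at hand for 6 members: Acta2, Cnn1, Cnn2, Myl9, Tpm1 and Tpm2. The box was found in Myl9 and Cnn2, and in 1.63% of 32851 promoters. The following 100 bases of each (plus strand) are shown because they hold it, in capitals.
Myl9 (chr2:156775264-156775363): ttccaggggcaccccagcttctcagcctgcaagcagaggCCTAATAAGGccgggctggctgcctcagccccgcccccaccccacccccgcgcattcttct
Cnn2 (chr10:79988484-79988583): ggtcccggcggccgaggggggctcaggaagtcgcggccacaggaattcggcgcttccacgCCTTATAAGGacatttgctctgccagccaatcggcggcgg
The box begins 161 bases before the start of Myl9 and 56 before that of Cnn2, and these genes had log2 fold changes of 1.71 and 0.33. The MCAT element, CATTCC on either strand, was found in the windows of Acta2 and Tpm1 and in 14.7% of all promoters. Among tested loci with a promoter window, 35.1% of 148 with a CArG box were called higher and 37.2% lower, against 36.5% and 35.5% of 9260 without one. A match is no more than these letters in this window. A gene without a match can still hold a box with other letters, or one outside the window.

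SRF and the factors that act with or against it were followed next. Of 15 tested SRF cofactors and repressors (16 listed), 3 were higher, 10 lower and 2 not called, where 33.6% of all loci were higher and 34.1% lower. Their median log2 fold change was -0.45. Among the lower, Elk1 (-0.28) and Elk4 (-0.65) are loci merged with another gene, Uxt and Slc45a3. Srf itself had 154.8 ± 6.48 CPM in WT and 138.1 ± 9.11 in Yme1l-/- cells, a log2 fold change of -0.17 ± 0.06 (edgeR adjusted p = 0.0203). That call was lost with upper-quartile scaling (-0.11) and in 4 of 6 fits without a culture, those without WT replicate 1 or 2 or Yme1l-/- replicate 2 or 3 (-0.16 to -0.13). With chromosome medians removed it was -0.33 (adjusted p = 0.000315). The coactivators went in opposite directions. Mkl1 went from 61.1 ± 1.79 CPM in WT to 151.3 ± 7.17 CPM in Yme1l-/- cells, a log2 fold change of 1.31 ± 0.05 (edgeR adjusted p = 2.16e-09). It lies on chromosome 15, and its value was 0.72 with chromosome medians removed. Mkl2 went from 63.3 ± 4.65 to 35.6 ± 2.31 CPM (-0.83 ± 0.07, edgeR adjusted p = 7.11e-07). Both differences exceeded the spread between cultures.

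Other factors on this list are known from smooth muscle. Notch3, a receptor of vascular smooth muscle cells, was higher (0.69 ± 0.11). Hey2, a Notch target and repressor of smooth muscle genes, had 388, 345 and 362 counts in WT and 10, 31 and 10 in Yme1l-/- cells (-4.89 ± 0.26, edgeR adjusted p = 1.02e-07). Without Yme1l-/- replicate 2, the library with 31 counts, its log2 fold change was -5.55. Gata6, a transcription factor of vascular smooth muscle, was lower (-1.39 ± 0.08). These were the largest called changes in their direction besides Mkl1.

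Of 20 further smooth muscle genes 14 were tested, and 6 were higher, 5 lower and 3 not called, with a median log2 fold change of 0.29. Their counts were close to the shares of all loci, 33.6% higher and 34.1% lower. Of the 14, 4 were called at least 2-fold higher and 1 at least 2-fold lower, against 9.1% and 8.63% of all loci. Mylk, the kinase of the regulatory light chain, had 31, 28 and 34 counts in WT and 96, 187 and 222 in Yme1l-/- cells (1.94 ± 0.21, edgeR adjusted p = 7.07e-06). Des, the intermediate filament desmin, had 15, 15 and 13 counts against 77, 129 and 163 (2.60 ± 0.22, edgeR adjusted p = 1.32e-06). Both were low in WT, under 1.1 CPM. Cald1, caldesmon, was abundant in both groups and higher in Yme1l-/- cells (1138.7 ± 7.4 against 1594.0 ± 67.7 CPM; 0.49 ± 0.05), and its value was 0.14 with chromosome medians removed. Mcam, an adhesion molecule of smooth muscle and pericytes, fell from 107.8 ± 10.3 to 14.5 ± 0.413 CPM (-2.90 ± 0.07), and the intermediate filament gene Synm also fell (-0.87 ± 0.20). Pln, Pgm5 and Kcnmb1 had no count in any library.

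RhoA and its kinases ROCK drive contraction by keeping the light chain phosphorylated. Of 22 tested genes of this pathway (23 listed), 8 were higher, 11 lower and 3 not called, with a median log2 fold change of -0.13, beside the same 33.6% and 34.1% of all loci. Mylk, already given, and Ppp1r12b, a targeting subunit of myosin phosphatase (23.3 ± 1.69 against 73.8 ± 4.31 CPM; 1.67 ± 0.07), rose most. Both genes and Ppp1r14a are also on the list of further smooth muscle genes. The GTPase gene Rhob (-0.86 ± 0.06) and the kinase gene Rock2 (-0.77 ± 0.06) were the largest decreases. Both lie on chromosome 12, whose median was -0.44, and remained called at -0.42 and -0.33 with chromosome medians removed.

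Of 16 SRF targets of the cytoskeleton, all tested, 4 were higher, 9 lower and 3 not called (median -0.20), where 33.6% of all loci were higher and 34.1% lower. Actb, Actg1, Fhl1, Fhl2, Csrp1, Pdlim7 and Srf are also counted in the lists above. Zyx, which encodes the focal adhesion protein zyxin, went from 272.8 ± 2.96 to 792.1 ± 73.5 CPM (1.54 ± 0.06), a rise of nearly the size of Acta2's, and Tgfb1i1 (Hic-5, also of focal adhesions) was higher by 0.72 ± 0.05. Csrp2 (-0.98 ± 0.06), a LIM protein of smooth muscle, and Cyr61 (-0.95 ± 0.09), a secreted matrix protein, were the largest decreases. All 8 tested immediate early genes, which SRF turns on after serum through other cofactors, were lower, against 34.1% of all loci, with a median of -1.04. Fosb (-2.19 ± 0.20) and Egr3 (-1.97 ± 0.27) fell most. Between 6 and 8 of them were called when a culture was left out.

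**Figure D4:**
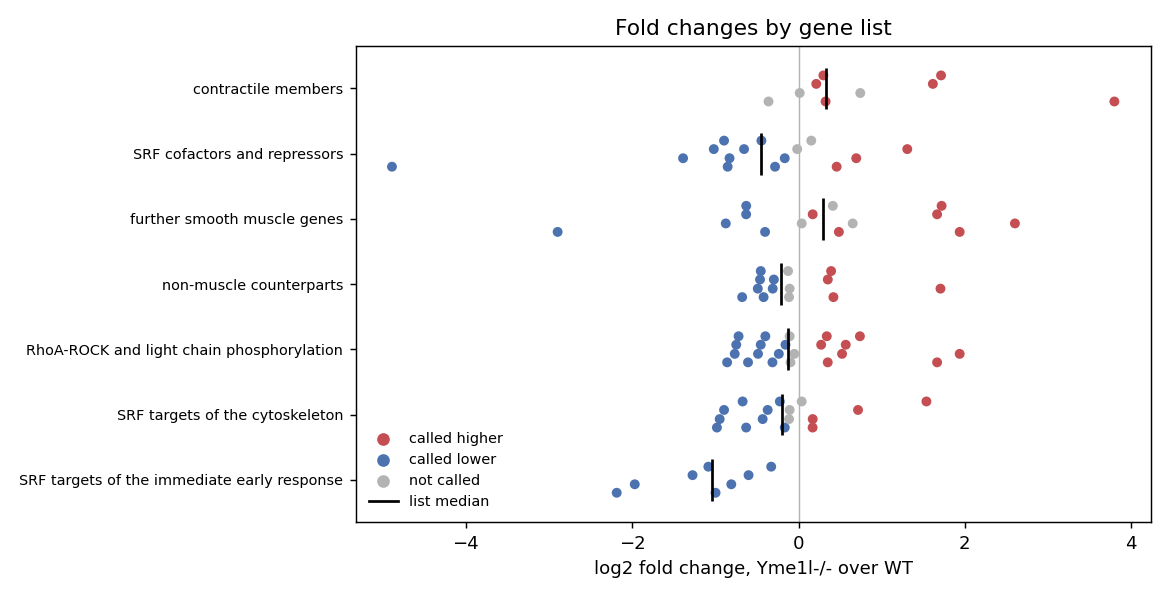
Log2 fold change (Yme1l-/- over WT) of every tested gene of the contractile set and of 6 related lists, coloured by whether it was called higher (red), lower (blue) or neither (grey), with a black bar at the list's median. The contractile set has its median at 0.33 (0.66 with chromosome medians removed), and the immediate early genes lie wholly to the left of 0.

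Markers of the cell types these cultures could hold gave the following. Of 9 tested fibroblast markers 1 was higher and 7 were lower, where all loci gave 33.6% and 34.1%, and their summed level went from 9070 to 9618 CPM in WT to 5693 to 6051 CPM in Yme1l-/- cells. Fbln2, the most abundant, went from 3002.1 ± 174.5 to 1411.8 ± 76.0 CPM, and the markers Thy1 and Lum were near 0 in both genotypes. Pericyte markers summed to 205.2 to 221.0 CPM in WT and 87.6 to 98.0 CPM in Yme1l-/- cells, with 1 of 4 tested higher and 3 lower, beside the same shares of all loci. Mcam (107.8 against 14.5 CPM) made up most of that fall, and Mcam, Notch3 and Pdgfrb are also counted in the lists above. The most abundant pericyte marker over all libraries, Pdgfrb, had 73.0 ± 7.4 CPM in WT and 57.8 ± 4.26 in Yme1l-/- cells, a call lost with chromosome medians removed (-0.14, adjusted p = 0.149). The defining genes Rgs5, Abcc9 and Higd1b had no count.

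Skeletal muscle markers were at or near 0: 12 of 13 had at most 10 counts in every library. Myog, Myf5 and Myf6 had none, and the list summed to at most 0.746 CPM in any library. The symbol of skeletal alpha-actin, Acta1, was on the list but was not found in the count table. The gene thus has no value here and is not part of the actin shares above. The most abundant gene of the list, Mylpf, was not called (0.58 ± 0.43). Cardiac markers summed to 2.24 to 4.43 CPM in WT and 3.79 to 4.58 CPM in Yme1l-/- cells, with Actc1 and Myl2 at 0. Of 3 cardiac markers tested, Tnnt2, the most abundant, was higher (0.87 ± 0.25). Nkx2-5 was lower (-2.65), a call not kept under every alternative. Tnni3 (a locus merged with Dnaaf3) was not called, and the median of the 3 was -0.0060. Epithelial markers went from 142.1 to 159.2 CPM in WT to 2.75 to 3.69 CPM in Yme1l-/- cells. Most of this was the keratin gene Krt19 (115.4 ± 9.02 against 2.66 ± 0.32 CPM), while Cdh1, the epithelial cadherin, stayed under 0.3 CPM on average. All 3 epithelial markers tested were called lower, against 34.1% of all loci, with log2 fold changes from -9.94 to -3.83. Under the alternative with the fewest calls 1 was lower. Endothelial markers summed to at most 2.00 CPM (Kdr 0.72 ± 0.22, called higher, but not without WT replicate 3 or without Yme1l-/- replicate 2) and leukocyte markers to at most 4.93 CPM (Cd68 1.04 ± 0.14, called higher). The part of the lower fibroblast, pericyte and keratin transcripts in the rise of the contractile genes was not tested.

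The loci most like a contractile gene across the 6 libraries were found by the root mean square difference of log2(CPM + 0.1) after each locus was centred on its mean. For Acta2 they were Nme4 (difference 0.0359), Fabp5 (0.0428) and Aif1l (0.0561), which rose by 1.56, 1.65 and 1.58 on the log2 scale. For Tagln they were Psmb3 (0.0241), Bola1 (0.0334) and Ybx3 (0.0360), and for Cnn1 Gm5171 (0.0776), Tigd5 (0.0800) and Mutyh (0.0817). With 3 libraries per genotype, likeness of this kind rests mainly on the size of the genotype difference. The contractile genes themselves were left out of the search.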

How the data were processed

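Poly(A) RNA of 3 WT and 3 Yme1l-/- MEF cultures was sequenced by the authors as stranded paired-end libraries. Per the labels and the study's methods, reads were mapped to mm10 (GRCm38) with HISAT2 2.0.4, assembled with StringTie 1.3.3 and compared with Cuffdiff 2.2.1. The deposited count table holds raw fragment counts per assembled locus, of which 635 merge several genes. Whether strand was used in counting, and how fragments with several matches were treated, is not given in the sources used here. A second deposited table holds 1 combined FPKM value per genotype, used for levels per length, and the authors' fold changes and p-values, which were not used.

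The tests used edgeR 4.0.16 and limma 3.58.1 under R 4.3.3, with filterByExpr (minimum count 10), TMM, glmQLFit with robust estimation and the two-sided quasi-likelihood test without covariates. Adjusted p-values are Benjamini-Hochberg over the 13867 loci tested, and a call is an adjusted p under 0.05. SE was taken from the fold change and the F statistic. The biological coefficient of variation was 8.47%. No pair of libraries agreed within sampling noise. CPM per kilobase used the union of GENCODE vM21 exons. The script was tested on simulated data.

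Members and lists were chosen with earlier results of these data known. Named besides the members were up to 2 increases and 2 decreases per pathway list, Srf, Mkl1, Mkl2, Actb, Actg1, Mylk and Cald1, the most abundant gene of each marker list, and the 3 loci most like Acta2, Tagln and Cnn1. Others (Col3a1, Thy1, Lum, Cdh1, Myl12a, Nkx2-5, Tnni3, defining markers) were named after their values were seen.

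Alternatives were RLE or upper-quartile factors, DESeq2 1.42.0, a filter of 1 count in total or of 10 counts per library, a block by replicate number, chromosome medians removed by an offset, and leaving out each culture.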

Additional observations from a re-analysis of the deposited data

How the results depend on the processing

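The count of contractile genes called lower was 0 by most fits and ranged from 0 to 1 when a culture was left out. Their median log2 fold change moved to 0.66 with chromosome medians removed. When a culture was left out Tpm1 ranged from -0.0513 (without Yme1l-/- replicate 1, adjusted p = 0.378) to 0.0524, and Myh9 turned to -0.17 with chromosome medians removed (adjusted p = 0.0327); the cause was not tested. Acta2 (1.5002 to 1.6835), Actg2 (3.46 to 3.88), Myl9 (1.68 to 1.77) and Tpm2 (0.18 to 0.31) were called under every alternative run. Tagln ranged from 0.19 to 0.66, Cnn1 from -0.50 to -0.00136 and Myh11 from 0.40 to 1.15 on the log2 scale. Over all tested loci replicate numbers did not pair the samples: deviations of same-numbered cultures correlated at 0.222, -0.194 and 0.0516. Single members can differ from this. A block by replicate number lowered the SE of Acta2 from 0.083 to 0.042 and that of Tagln from 0.090 to 0.042. It raised the SE of Actg2 (0.136 to 0.141) and of Myh11 (0.452 to 0.497). With the number as a block, 6 members were higher and 0 lower with a median of 0.33, 9794 loci were called against 9387, and Actb (-0.11, adjusted p = 0.0214) and Actg1 (-0.11, adjusted p = 0.0230) passed the threshold, as Actb also did with DESeq2 and Actg1 without WT replicate 3 and with chromosome medians removed. Upper-quartile factors moved the median of all loci from -0.0041 to 0.0552. Myh11 and Myocd are limited by depth, and with at least 10 counts in every sample Myh11 was not tested.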
